A study of Mus musculus with 6 samples.

Results

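The enzymes of glycolysis, of gluconeogenesis and of the entry of fructose and galactose into these pathways were described in intestinal epithelial cells of mice lacking GGTase-Iβ and of control mice. They were listed by gene name for their function, from hexokinase to lactate dehydrogenase and pyruvate dehydrogenase control. The listing used no measured value, but it was made with earlier results of these data known. Of 38 listed genes, 33 were on the array under a single gene symbol, out of 18193 such genes in all, and 30 of them were among the 8893 genes tested. The deficient group was 3 mice that carried floxed Pggt1b, the gene of the GGTase-I beta subunit, together with VillincreERT2, a tamoxifen-inducible Cre recombinase driven by the epithelial Villin promoter. GGTase-I attaches a geranylgeranyl lipid to proteins. The control group was 3 mice with the floxed gene and without the recombinase. Both groups were of mixed 129/SV and C57BL/6 background and received 1 mg tamoxifen on each of 3 days, and cells were isolated on day 6. Total RNA of each mouse was measured on its own Affymetrix array. Since no control mouse carried the recombinase, effects of Cre and of gene loss cannot be told apart. The labels give no intestinal segment, sex or age.

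Glycolysis splits glucose into pyruvate and gains ATP, and its one-way steps are those of hexokinase, phosphofructokinase and pyruvate kinase. Gluconeogenesis runs the shared steps backwards and bypasses the one-way steps with pyruvate carboxylase, phosphoenolpyruvate carboxykinase, fructose-1,6-bisphosphatase and glucose-6-phosphatase. The small intestine absorbs glucose, galactose and fructose from the diet, and its enterocytes phosphorylate much of the fructose through ketohexokinase and hold a set of gluconeogenic enzymes.

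The values are log2 expression as deposited, and a difference is the mean of the deficient arrays minus the mean of the control arrays. A gene was tested where its value lay above 5 (log2) on at least 3 of the 6 arrays, and it was called where the limma p, adjusted over all genes tested by the method of Benjamini and Hochberg, was under 0.05. Hk3, Ldhb and Pgam2 lay at or below 5 on every array, with highest values of 3.16, 4.49 and 1.74 (log2) over all their probe sets, and were not tested. Gapdh was measured here on control probe sets only, which stayed outside the fit. Gpi1, Eno1, Pfkfb1 and Galk1 were not analysed here.

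Of the 6 arrays, control replicate 2 and deficient replicate 1 stood apart in the data behind these enzymes. The Gapdh signal at the 3′ end of the transcript minus that at the 5′ end was 1.24, -0.29 and 0.86 (log2) on the deficient arrays against 1.62, 4.11 and 1.03 on the control arrays. For Actb it was 1.72, 0.88 and 1.45 on the deficient arrays against 1.70, 3.16 and 1.38 on the control arrays, so control replicate 2 had the steepest slope on both transcripts. Deficient replicate 1 lay farthest from the other arrays of its group for 17 of the 30 enzymes (56.7%, against 44.2% of all genes tested). Control replicate 2 did so for 17 of the 30 in its group (56.7%, against 42.6%). Pggt1b itself did not separate the groups, with 9.75, 8.88 and 8.83 on the deficient arrays against 9.30, 9.55 and 9.33 on the control arrays (limma adjusted p = 0.678). The labels do not say whether its probe set reads the deleted stretch, and each direction rests on the group labels.

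**Figure D1:**
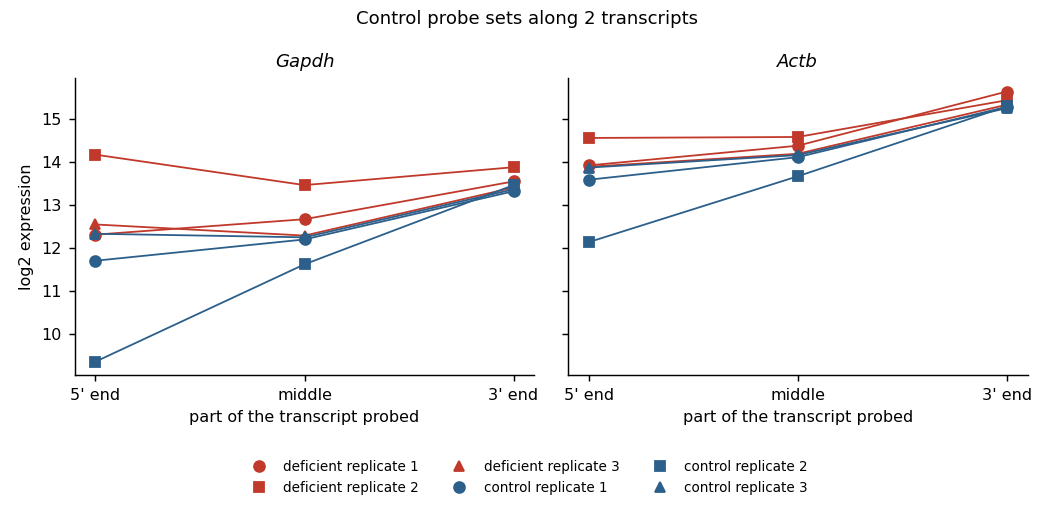
Log2 expression (vertical axis) of control probe sets for the 5′ end, middle and 3′ end (horizontal axis) of Gapdh on the left and Actb on the right, with 1 line per array, deficient arrays in red and control arrays in blue. Control replicate 2 has the lowest 5′ value on both transcripts, 9.34 for Gapdh and 12.13 for Actb, while its 3′ values lie among those of the other arrays.

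No enzyme of the set passed the threshold: 0 of 30 were called lower and 0 of 30 higher, where 1.98% of all 8893 genes were called lower (176 genes), 0.112% higher (10 genes) and 2.09% either way (186 genes). The lowest adjusted p among the 30 was 0.162, for the gluconeogenic enzyme Fbp1. At an unadjusted limma p under 0.05 the set held 6 lower enzymes (20% of 30, against 11.3% of all genes) and 2 higher ones (6.67%, against 5.60%). The 6 were Fbp1, Khk, Pfkm, Galt, Pgm1 and Aldoc, and the 2 were Pfkp and Pklr. Pfkm lay above 5 on 3 control arrays and 1 deficient array, so it passed the filter through the control arrays, where it was higher. The deficient values lay wholly below the control values for 7 enzymes, Pfkm among them (23.3%, against 16.7% of all genes). They lay wholly above the control values for 3 enzymes (10%, against 9.00%). The mean was lower in the deficient arrays for 19 of 30 enzymes (63.3%) and for 4851 of 8893 genes. The median log2 difference was -0.18 over the enzymes and -0.04 over all genes tested, and the median of its size without sign was 0.35 and 0.27. With each array left out in turn the median difference over the enzymes ran from -0.23 to -0.10.

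**Figure D2:**
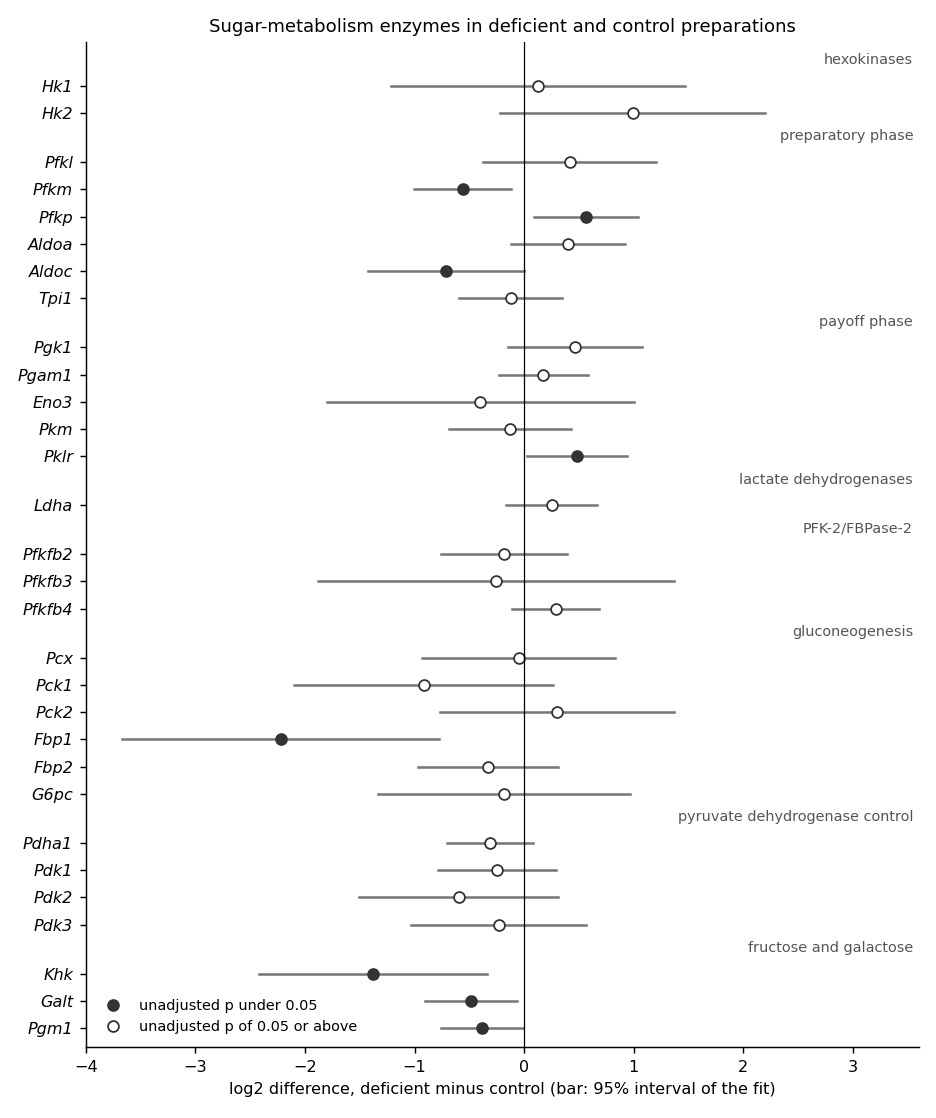
Log2 difference, deficient minus control, of the 30 tested enzymes, grouped by role, with 95% confidence intervals of the limma fit. Fbp1 at -2.22 and Khk at -1.38 lie farthest below 0, Hk2 at 0.99 lies farthest above 0 with an interval that spans 0, and no enzyme passed the threshold after adjustment over all genes.

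Among the hexokinases, which trap glucose in the cell as glucose 6-phosphate, the 2 tested genes differed mainly on 1 array. Hk2, the insulin-responsive form of muscle and of many dividing cells, had 11.58, 9.61 and 9.99 (log2) on the deficient arrays against 9.63, 8.95 and 9.63 on the control arrays. Deficient replicate 1 was the highest of the 6, and the groups overlapped because deficient replicate 2 lay just below 2 of the controls. The difference was 0.99 ± 0.51 (SE), with a 95% interval of -0.22 to 2.20 and a limma adjusted p of 0.367. Without deficient replicate 1 it was 0.40. Hk1, the broadly expressed form bound to mitochondria, had 9.77 on deficient replicate 1 and 7.67 and 7.56 on deficient replicates 2 and 3, against 8.13, 8.30 and 8.20 on the control arrays. Its difference of 0.13 (adjusted p = 0.922 in limma) became -0.59 when deficient replicate 1 was left out. The mean of the hexokinase values, set to 0 at the control mean, was 1.87, -0.17 and -0.03 on the deficient arrays against 0.07, -0.18 and 0.11 on the control arrays.

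The preparatory phase, in which sugar phosphates are phosphorylated again and split, differed in both directions: 3 of 6 tested enzymes had a lower and 3 a higher mean, with a median difference of 0.14. Phosphofructokinase, the committed step, is made from 3 genes. Pfkp, the platelet form, had 12.03, 12.07 and 11.70 (log2) in the deficient arrays against 11.44, 11.08 and 11.58 in the control arrays. All 3 deficient values lay above all 3 control values, by a narrow margin between deficient replicate 3 and control replicate 3. The difference was 0.57 ± 0.20 (SE, 95% interval 0.09 to 1.04, limma adjusted p = 0.237). A second probe set gave 0.27 with groups that overlapped, and the fit with the Gapdh covariate gave 0.33. Pfkl, the liver form, had 8.01, 7.61 and 6.71 in the deficient arrays against 6.89, 6.95 and 7.24 in the control arrays. The groups overlapped, and the difference of 0.42 ± 0.33 had an interval of -0.37 to 1.21 (limma adjusted p = 0.542). It was 0.13 without deficient replicate 1 and 0.78 without deficient replicate 3.

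Pfkm, the muscle form of phosphofructokinase, went the other way. It had 4.98, 4.98 and 5.22 in the deficient arrays against 5.91, 5.43 and 5.54 in the control arrays, with no overlap. The difference was -0.56 ± 0.19 (SE, 95% interval -1.01 to -0.12, limma adjusted p = 0.221). All of these values lie close to the level of 5 used as filter, and 2 of the deficient values lie below it. Pfkm thus passed the filter through the control arrays. The aldolases, which split fructose 1,6-bisphosphate, also differed in direction. Aldoc, the brain-type aldolase, had 8.22, 7.48 and 7.83 in the deficient arrays against 8.30, 9.11 and 8.27 in the control arrays. Its groups did not overlap, but deficient replicate 1 lay within 0.1 of the lowest control, and the difference of -0.72 ± 0.30 (limma adjusted p = 0.295) was -0.44 without control replicate 2. Aldoa, the muscle-type and most widespread aldolase, differed by 0.40 (adjusted p = 0.388 in limma), and its 5 probe sets gave 0.40 to 0.62. Tpi1, triosephosphate isomerase, differed by -0.12 (adjusted p = 0.771).

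The payoff phase, which yields ATP and pyruvate, had 5 tested enzymes, 2 with a lower and 3 with a higher mean and a median difference of 0.18. Pyruvate kinase, its last step, is encoded by 2 genes. Pklr, the liver and red cell gene, had 10.72, 10.80 and 10.91 (log2) in the deficient arrays against 9.99, 10.47 and 10.51 in the control arrays. The deficient values lay above all controls, and control replicate 1 was the lowest of the 6. The difference was 0.48 ± 0.19 (SE, 95% interval 0.02 to 0.94, limma adjusted p = 0.279), and it was 0.32 without control replicate 1. A second, dimmer probe set gave 1.23 with groups that overlapped, and control replicate 2 was the lowest there, at 5.17. Pkm, the gene of the muscle-type forms found in most tissues, had 10.90, 10.86 and 10.84 in the deficient arrays against 10.73, 11.50 and 10.77 in the control arrays. Only control replicate 2 stood off, and the other 5 values lay within a narrow band. The difference of -0.13 ± 0.24 (95% interval -0.69 to 0.43, limma adjusted p = 0.800) was 0.12 without control replicate 2.

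Pgk1, phosphoglycerate kinase, differed by 0.47 (adjusted p = 0.394 in limma), with 0.47 to 0.66 over its 3 probe sets. Pgam1, phosphoglycerate mutase, differed by 0.18 (adjusted p = 0.615). Eno3, the muscle enolase, had 8.96 on deficient replicate 1 and 6.51 and 6.97 on deficient replicates 2 and 3, against 7.79, 7.85 and 8.01 on the control arrays. It thus lay above all controls on 1 deficient array and below them on the other 2. The difference of -0.40 was -1.14 (limma adjusted p = 0.0679) without deficient replicate 1. Gapdh, glyceraldehyde-3-phosphate dehydrogenase, had 13.54, 13.87 and 13.40 at its 3′ control probe set in the deficient arrays against 13.32, 13.46 and 13.36 in the control arrays. The groups overlapped there. At the middle control probe set the deficient arrays had 12.66, 13.46 and 12.28 against 12.19, 11.61 and 12.24 on the control arrays, without overlap. At the 5′ end the groups overlapped, with 12.30, 14.17 and 12.54 on the deficient arrays against 11.70, 9.34 and 12.32 on the control arrays. The difference was 0.23 at the 3′ end, 0.79 in the middle and 1.88 at the 5′ end, so it varied with the part probed. The control probe sets were not tested.

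Lactate dehydrogenase turns pyruvate into lactate and restores NAD+. Ldha, its muscle-type subunit, had 14.28, 14.19 and 14.03 in the deficient arrays against 13.81, 14.15 and 13.79 in the control arrays. Control replicate 2 lay within the deficient range and the other controls below it. The difference was 0.25 ± 0.18 (SE, 95% interval -0.16 to 0.67, limma adjusted p = 0.484), and the interval ended below 1 on the log2 scale. On the pyruvate side, Pdha1, the alpha subunit of pyruvate dehydrogenase, and the kinases Pdk1, Pdk2 and Pdk3, which switch that complex off, all had a lower mean in the deficient arrays, 4 of 4 with a median of -0.28. Their differences were -0.31, -0.25, -0.60 and -0.23, and their limma adjusted p ran from 0.376 to 0.744. Over all genes tested, 4851 of 8893 had a lower mean. The Pdha1 groups did not overlap, yet its other probe set gave 0.19, and 1 probe set of Pdk1 gave 0.16. Pdk2 lay at 4.51 on deficient replicate 1, below the filter level of 5. Its difference was -0.19 without that array and -0.02 without both that array and control replicate 2.

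The bifunctional PFK-2/FBPase-2 enzymes set the level of fructose 2,6-bisphosphate, an activator of phosphofructokinase and inhibitor of fructose-1,6-bisphosphatase. Pfkfb3, the form with the highest kinase activity, had 7.97, 5.16 and 7.58 (log2) in the deficient arrays against 6.99, 7.27 and 7.22 in the control arrays. Deficient replicate 2 lay far below every other array, and deficient replicates 1 and 3 lay above all controls. The difference was -0.26 ± 0.69 (SE, 95% interval -1.88 to 1.37, limma adjusted p = 0.866), and 0.62 without deficient replicate 2. Pfkfb4 differed by 0.29 with no overlap (limma adjusted p = 0.409), and Pfkfb2 by -0.18 (adjusted p = 0.718).

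Gluconeogenesis held the largest single difference of the set. Of its 6 tested enzymes 5 had a lower mean in the deficient arrays, with a median difference of -0.26. Fbp1, the liver-type fructose-1,6-bisphosphatase, had 8.18, 10.24 and 10.68 (log2) in the deficient arrays against 11.76, 11.84 and 12.17 in the control arrays. Every deficient value lay more than 1 below the lowest control, and deficient replicate 1 lay about 2 below the other deficient arrays. The difference was -2.22 ± 0.61 (SE, 95% interval -3.67 to -0.78), which is 4.66-fold lower in the deficient arrays, with a limma adjusted p of 0.162. Without deficient replicate 1 the difference was smaller, -1.46, but the spread shrank as well and the limma adjusted p was 0.0402. This was the only call of an enzyme of the set under any alternative. Over all alternatives its adjusted p ran from 0.0402 to 0.386.

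The other gluconeogenic enzymes did not follow Fbp1 in size. Pck1, the cytosolic phosphoenolpyruvate carboxykinase, had 10.40, 12.53 and 11.38 in the deficient arrays against 12.10, 12.48 and 12.48 in the control arrays. Deficient replicate 2 was the highest of the 6 and deficient replicate 1 the lowest, so the groups overlapped. The difference was -0.92 ± 0.50 (SE, 95% interval -2.10 to 0.26, limma adjusted p = 0.386), and a second, dimmer probe set gave 0.08. It was -0.40 without deficient replicate 1 and -1.47 without deficient replicate 2. G6pc, the catalytic subunit of glucose-6-phosphatase that releases free glucose, had 8.29, 10.24 and 9.32 in the deficient arrays against 9.64, 9.01 and 9.76 in the control arrays. The deficient arrays spanned the whole control range, and the difference of -0.19 ± 0.48 (95% interval -1.34 to 0.96, limma adjusted p = 0.862) was 0.31 without deficient replicate 1. Fbp2, the muscle-type bisphosphatase, differed by -0.33, Pcx, pyruvate carboxylase, by -0.05, and Pck2, the mitochondrial carboxykinase, by 0.30 (limma adjusted p from 0.552 to 0.954). The mean of the 6 enzymes, set to 0 at the control mean, was -1.31, -0.05 and -0.34 on the deficient arrays against 0.01, -0.14 and 0.13 on the control arrays, so deficient replicate 1 again lay farthest out.

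**Figure D3:**
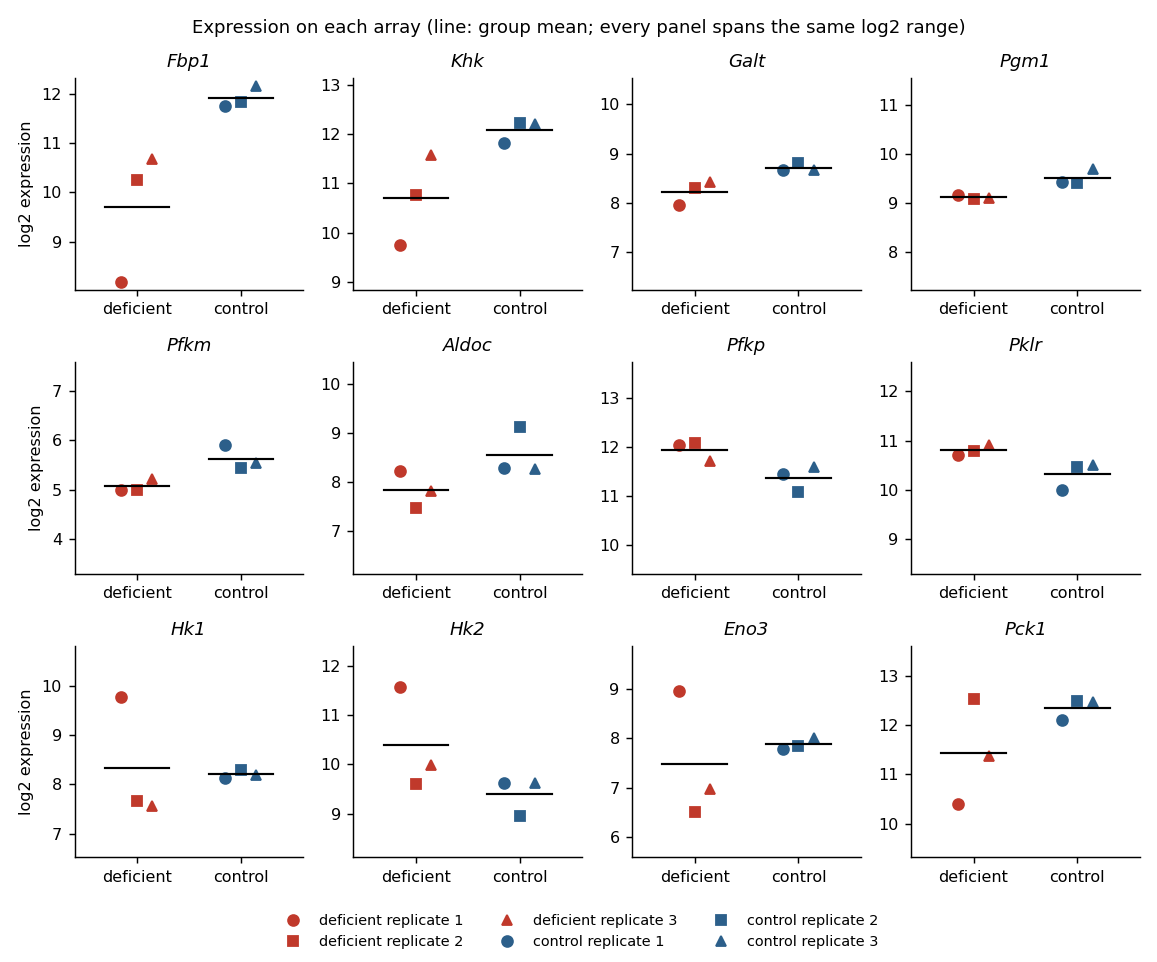
Log2 expression of each array of 12 of the enzymes, 1 panel per gene, with deficient arrays on the left, control arrays on the right and group means as lines. The deficient arrays spread widely for Fbp1 (8.18 to 10.68), Khk (9.75 to 11.58) and Pck1 (10.40 to 12.53), where the control arrays lie close together.

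The enzymes of fructose and galactose entry were lower in the deficient arrays in 3 of 3 tested cases, with a median difference of -0.48, and all 3 had groups that did not overlap. Over all genes tested, 4851 of 8893 had a lower mean and 16.7% lay wholly below the controls. None passed the threshold after adjustment. Khk, ketohexokinase, which phosphorylates fructose, had 9.75, 10.77 and 11.58 (log2) in the deficient arrays against 11.81, 12.23 and 12.20 in the control arrays. Deficient replicate 1 was the lowest and deficient replicate 3 came within 0.3 of the lowest control. The difference was -1.38 ± 0.44 (SE, 95% interval -2.42 to -0.34), or 2.60-fold lower, with a limma adjusted p of 0.202. It was -0.90 without deficient replicate 1, and -1.82 (adjusted p = 0.0587) without deficient replicate 3.

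Galt, galactose-1-phosphate uridylyltransferase, had 7.96, 8.31 and 8.42 in the deficient arrays against 8.68, 8.80 and 8.66 in the control arrays. The difference was -0.48 ± 0.18 (SE, 95% interval -0.90 to -0.06, limma adjusted p = 0.250). Pgm1, phosphoglucomutase, which links glucose 1-phosphate to glycolysis, had 9.17, 9.09 and 9.11 in the deficient arrays against 9.43, 9.40 and 9.69 in the control arrays. The deficient arrays were nearly equal, and the difference was -0.38 ± 0.16 (SE, 95% interval -0.76 to -0.01, limma adjusted p = 0.287). The mean of the 3 enzymes, set to 0 at the control mean, was -1.14, -0.71 and -0.40 on the deficient arrays against -0.13, 0.05 and 0.08 on the control arrays. In these mixed preparations, fewer cells of a type and less RNA per cell cannot be told apart.

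The promoters of Fbp1, Khk and Pfkp are printed because these enzymes had the lowest adjusted p in gluconeogenesis, in fructose entry and, among enzymes with a higher mean, in glycolysis. They were chosen after their values were seen. Each is the 250 bases before the annotated start in RefSeq (GRCm38.p6), on the strand of the gene, with CACGTG and GCGTG in capitals. Fbp1 lies on the minus strand, chr13:62888283-62888532, and its window has 56.4% G and C. Khk lies on the plus strand, chr5:30921309-30921558, with 67.2% G and C. Pfkp lies on the minus strand, chr13:6648772-6649021, with 62.8% G and C, where the median of all windows is 52.4%.
Fbp1: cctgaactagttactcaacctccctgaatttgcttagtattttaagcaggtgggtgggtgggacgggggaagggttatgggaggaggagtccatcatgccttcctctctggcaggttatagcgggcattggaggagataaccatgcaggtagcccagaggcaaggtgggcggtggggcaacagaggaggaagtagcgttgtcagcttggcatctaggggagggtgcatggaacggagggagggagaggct
Khk: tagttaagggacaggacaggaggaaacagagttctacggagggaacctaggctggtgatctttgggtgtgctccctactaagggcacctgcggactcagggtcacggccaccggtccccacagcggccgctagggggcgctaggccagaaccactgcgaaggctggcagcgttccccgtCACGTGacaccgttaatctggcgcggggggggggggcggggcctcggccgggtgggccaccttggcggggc
Pfkp: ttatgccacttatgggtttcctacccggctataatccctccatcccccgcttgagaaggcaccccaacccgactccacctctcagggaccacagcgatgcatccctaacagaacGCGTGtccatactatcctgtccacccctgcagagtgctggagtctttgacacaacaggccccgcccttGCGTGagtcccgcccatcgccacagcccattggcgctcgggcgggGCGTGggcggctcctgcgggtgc

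The windows were searched on both strands for CACGTG (the E-box read by ChREBP, MYC and other factors of that family), ACGTG and GCGTG (the cores of hypoxia response elements), TGACGTCA (the cyclic AMP response element) and TATAAA (the TATA box). ACGTG is contained in CACGTG, so each E-box also counts as ACGTG. The Khk window held 1 CACGTG, 71 bases before the start. The Pfkp window held 3 GCGTG, 136, 68 and 23 bases before the start, and the Fbp1 window held none of the searched letters. Over the 33 measured enzymes, each of which matched a RefSeq promoter, CACGTG occurred in 9 (27.3%, against 6.86% of all genes with a promoter and 10.5% of the tested genes). ACGTG occurred in 17 (51.5%, against 18.5% and 26.1%), and GCGTG in 17 (51.5%, against 30.9% and 51.1%). TGACGTCA occurred in 1 (3.03%, against 1.77% and 3.1%) and TATAAA in 3 (9.09%, against 14.3% and 8.24%). The 33 enzymes had 50 windows, and a gene was counted where any of its windows held the letters. Per window, CACGTG occurred in 18% of those 50 against 6.02% of all windows, and ACGTG in 42% against 16.6%. For GCGTG it was 40% against 28.2%, for TGACGTCA 2% against 1.55% and for TATAAA 6% against 12.4%. A match is a run of letters in this window and not a measured site.

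Neighbouring pathways were read from further gene lists, and only the hexose transporters held a called gene. Of the other enzymes of sugar metabolism, 0 of 7 tested were called (median difference -0.26). Slc37a4, which carries glucose 6-phosphate into the endoplasmic reticulum for glucose-6-phosphatase, had 8.56, 9.56 and 9.83 in the deficient arrays against 10.67, 11.22 and 10.90 in the control arrays, a difference of -1.61 (limma adjusted p = 0.085). Pgm2, a relative of Pgm1 that acts on pentose phosphates, had 12.15, 11.68 and 10.81 in the deficient arrays against 9.97, 10.42 and 10.17 in the control arrays, a difference of 1.36 (limma adjusted p = 0.137). Neither pair of groups overlapped. In pyruvate entry into mitochondria 0 of 8 were called (median -0.19), with Pdp2, a pyruvate dehydrogenase phosphatase, at -0.93 (limma adjusted p = 0.287) and Dlat, a core subunit of the complex, at -0.59 (0.296).

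In the pentose phosphate pathway 0 of 7 were called (median 0.15). Rpe, ribulose-phosphate epimerase, differed by 0.86 (limma adjusted p = 0.122) and Tkt, transketolase, by 0.20 (0.596). Of the regulators of these pathways, 0 of 9 were called (median -0.08). Ppargc1a, a coactivator that drives gluconeogenic genes in liver, had 8.12, 8.61 and 9.42 in the deficient arrays against 10.17, 10.66 and 10.24 in the control arrays, a difference of -1.64 with no overlap (limma adjusted p = 0.076). Mlxipl, which encodes the carbohydrate-responsive factor ChREBP, had 10.01, 10.42 and 10.57 in the deficient arrays against 11.46, 11.05 and 11.00 in the control arrays, a difference of -0.83 (limma adjusted p = 0.149). Both regulators, named for the smallest p of the list, were lower on every deficient array than on every control array, without passing the threshold. Over all genes tested, 16.7% lay wholly below the controls and 9.00% wholly above. Esrra (-0.57) and Epas1 (-0.17) also lay wholly below the controls and Hnf4a (0.36) wholly above, all named after their values were seen. Of the 9 regulators, 5 had a lower and 4 a higher mean. Hif1a, named after its values were seen, differed by 0.84 with groups that overlapped (limma adjusted p = 0.238).

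Of the hypoxia-responsive genes, many of which share induction by HIF with glycolytic genes, 0 of 8 were called (median 0.19). Car9, carbonic anhydrase 9, differed by 0.80 (limma adjusted p = 0.184) and Ankrd37 by 0.97 (0.300). The mean of that list was 0.94, -0.19 and -0.04 on the deficient arrays against -0.28, 0.41 and -0.13 on the control arrays, so it was highest on deficient replicate 1, as was the mean of the hexokinases. Of the 5 hexose transporters 1 was called, lower: Slc2a3, the high-affinity transporter of neurons and leukocytes, had 1.96, 2.05 and 1.96 in the deficient arrays against 6.63, 7.02 and 6.10 in the control arrays. Its fitted difference of -4.59 (limma adjusted p = 0.00108) is measured against the floor of the deficient arrays. The transporters of absorption, named after their values were seen, had differences of -1.98 for Slc2a2, -1.12 for Slc2a5, which carries fructose, and -0.76 for Slc5a1 (limma adjusted p = 0.296, 0.419 and 0.355). Slc2a1, also named after its values were seen, stood at 13.88 on deficient replicate 1 and 11.90 and 12.11 on the other deficient arrays, against 11.75, 11.92 and 11.78 on the control arrays.

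**Figure D4:**
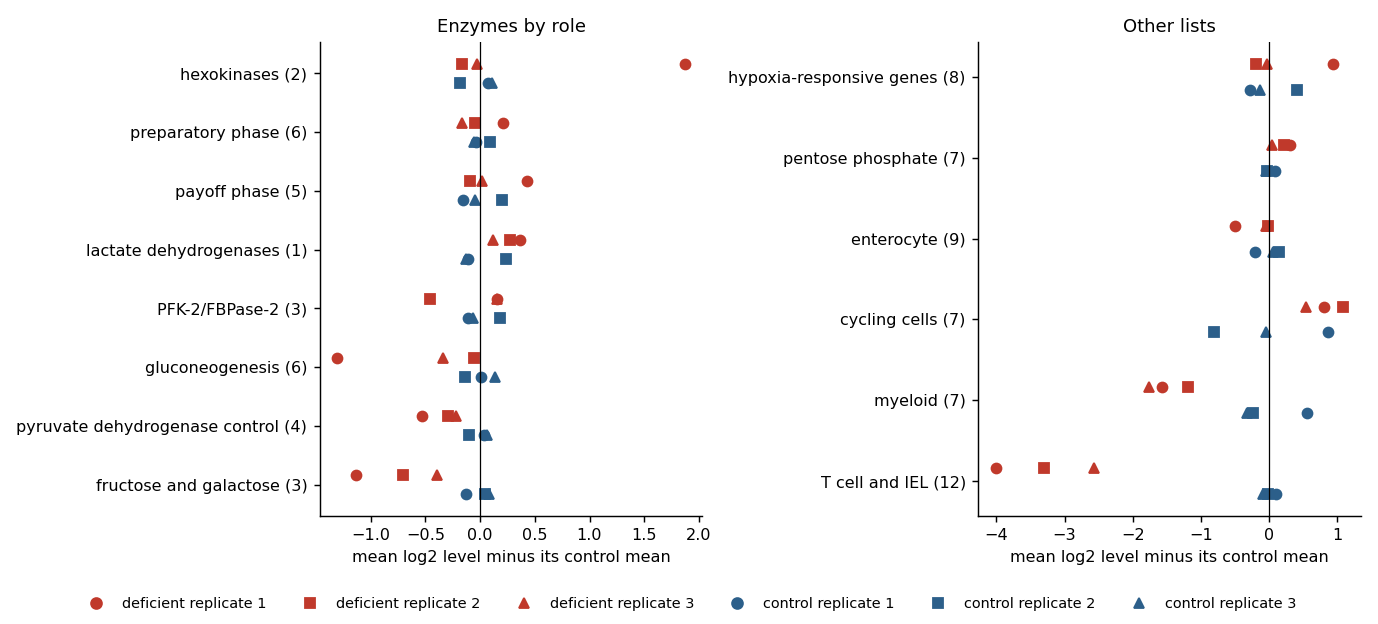
Mean log2 expression of each gene list on each array, set to 0 at the mean of the control arrays, for the roles of the enzymes on the left and 6 of the other lists on the right (number of genes in parentheses), with deficient arrays in red and control arrays in blue. The T cell list lies between -4.01 and -2.57 on the deficient arrays, the fructose and galactose enzymes between -1.14 and -0.40, and the pentose phosphate list between 0.04 and 0.30.

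Markers of other cells differed between the same arrays. Of 12 markers of T cells and intraepithelial lymphocytes 10 were called lower and all 12 had a lower mean, and the level of the list, relative to the control mean, was -4.01, -3.30 and -2.57 on the deficient arrays against 0.09, -0.01 and -0.08 on the control arrays. Of these 12, 7 lay at or below 5 on at least 1 deficient array and 3 on all 3, so they passed the filter through the control arrays and their differences are measured against the floor. With values below 5 raised to 5 the list level was -3.32, -2.86 and -2.41 on the deficient arrays against 0.09, -0.01 and -0.08 on the control arrays. Of 7 tested myeloid markers 4 were called lower (list level -1.57, -1.19 and -1.76 on the deficient arrays against 0.56, -0.23 and -0.33 on the control arrays). The 4 were Adgre1, Itgax, Tyrobp and Fcer1g. Itgax had 4.46, 4.49 and 3.93 on the deficient arrays, so it passed the filter through the control arrays, where it was higher. With values below 5 raised to 5 the myeloid level was -1.50, -1.11 and -1.60 on the deficient arrays and unchanged on the control arrays. Of 4 tested stromal markers none was called, with 3 at an unadjusted limma p under 0.05, all lower (list level -1.55, -1.17 and -0.61 on the deficient arrays against 0.58, -0.26 and -0.32 on the control arrays). Neither red cell marker on the array lay above 5 on enough arrays to be tested. The enterocyte markers, 0 of 9 called, read -0.51, -0.02 and -0.05 on the deficient arrays against -0.20, 0.14 and 0.06 on the control arrays. Their differences ran from -0.94 to 0.17, with 5 lower and 4 higher means. Lct (lactase) had the smallest p, with 12.67, 13.92 and 14.06 on the deficient arrays against 14.37, 14.66 and 14.46 on the control arrays and no overlap (limma adjusted p = 0.274). The list mean was lowest on deficient replicate 1, as were Fbp1, Khk, Pck1 and G6pc, while Hk1, Hk2 and Eno3 were highest on that array. The enterocyte markers did not agree there. Vil1, Lct, Fabp1, Treh and Anpep were at their lowest on it, and Alpi and Apoa1 at their highest. Markers of cycling cells, 0 of 7 called, read 0.81, 1.09 and 0.54 on the deficient arrays against 0.86, -0.81 and -0.05 on the control arrays, and were lowest on control replicate 2. The ileum list had 1 of 5 called lower, Cubn at -1.25 (limma adjusted p = 0.0237). That list read 0.68, 0.68 and -0.29 on the deficient arrays against 0.66, -1.38 and 0.72 on the control arrays. The proximal list, 0 of 6 called, read 0.47, 0.15 and 0.47 on the deficient arrays against -0.46, 0.62 and -0.16 on the control arrays. It had 3 lower and 3 higher means, and Cybrd1 had the smallest p, at 3.21 with no overlap (limma adjusted p = 0.170). The part of these differences in the values of the enzymes was not tested.

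With each array left out in turn, Fbp1 stayed between -2.71 and -1.46, Khk between -1.82 and -0.90, Pfkp between 0.42 and 0.68 and Pklr between 0.32 and 0.57. The sign turned for 10 of the 30 enzymes: Hk1 (-0.59 to 0.51), Pfkfb3 (-0.79 to 0.62), G6pc (-0.67 to 0.31), Pkm (-0.27 to 0.12), Eno3 (-1.14 to 0.09), Pcx (-0.34 to 0.34), Pck2 (-0.18 to 0.69), Tpi1 (-0.22 to 0.04), Pfkfb2 (-0.33 to 0.01) and Pdk3 (-0.60 to 0.07). Without both arrays that stood apart, the difference was -1.50 for Fbp1 (limma adjusted p = 0.0729), -0.83 for Khk, 0.17 for Hk2 and 0.38 for Pfkp, and the median over the 30 enzymes was -0.02. With the Gapdh difference between 3′ and 5′ ends as a covariate, Fbp1 was at -2.61 (limma adjusted p = 0.341), Khk at -1.41, Aldoc at -0.19 and Pkm at 0.22. Both of these fits were chosen after the data were seen.

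**Figure D5:**
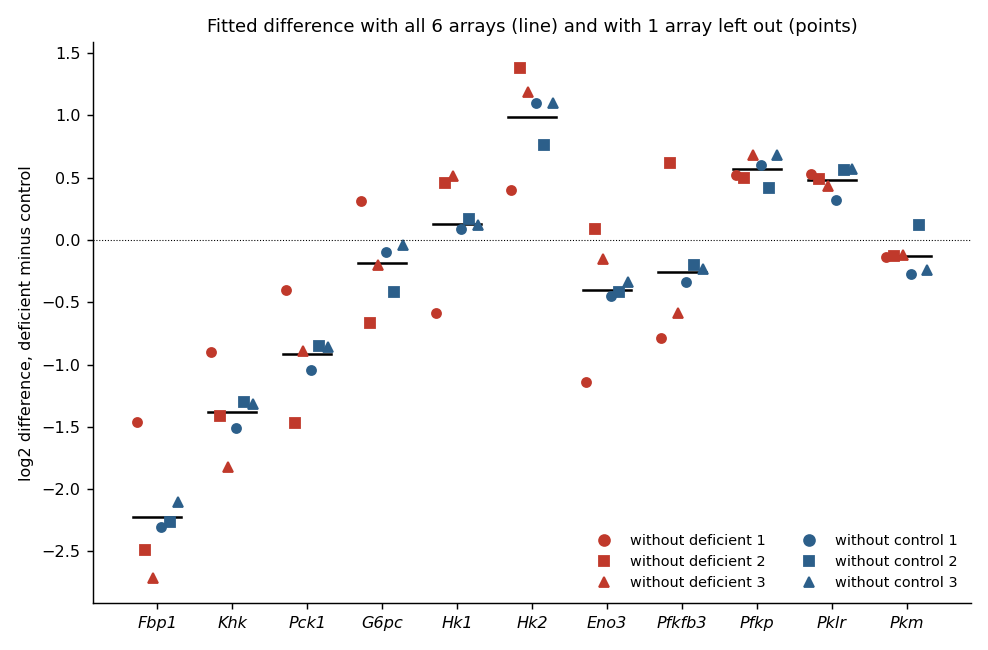
Log2 difference, deficient minus control, of 11 enzymes (horizontal axis) with all 6 arrays as a line and with each array left out in turn as points. Fbp1 and Khk stay below 0 and Pfkp and Pklr above 0 in all 6 fits, while Hk1, Pfkfb3, G6pc, Eno3 and Pkm cross 0.

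The enzymes were covered by 65 probe sets, 17 of the enzymes by more than 1. In a fit over all probe sets above the filter, 213 of 14478 were called and 0 of the 44 for these enzymes. Of the 8 enzymes with several tested probe sets, Aldoa, Pfkp, Pgk1 and Pklr had 1 direction on all of theirs, higher in the deficient arrays, and Pck1, Pdha1, Pdk1 and Tpi1 had both directions. Of the 30 tested enzymes, Aldoa and Pgk1 were represented by probe sets with the ending for possible matches to other genes, so their values may include signal of relatives. The Pgk1 probe set without an ending gave 0.66. A further 10, Ldha among them, had the ending for several transcripts of 1 gene, and 18 had neither.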

How the data were processed

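Total RNA of 3 deficient and 3 control mice was measured on 6 arrays, which the labels call biological replicates. The authors deposited 1 log2 value for each probe set on each array. Partek 6.5 and GCRMA are named, per the submitters' processing notes. GCRMA corrects background by probe sequence and places dim probe sets near a floor. No label states the log2 scale, which was read from the range of the values (0.42 to 16.4, medians 3.26 to 3.33). Of 45101 probe sets, 34945 had 1 gene symbol, 932 several and 9211 none in the platform annotation. The 64 controls were left out, and some of them are also counted among the 932 or the 9211, so these counts overlap. Each gene was represented by its probe set with the highest mean, and between 35.6% and 36.5% of probe sets lay above 5 on each array. The number of arrays limits the precision.

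The 8893 genes above 5 on at least 3 arrays were fitted with limma 3.58.1 (lmFit and eBayes, R 4.3.3) without covariates, and p-values were adjusted by Benjamini-Hochberg and called under 0.05. The script was tested on simulated data. The labels name no batch. Tried as alternatives were trended and robust eBayes, array weights, other filters, quantile or median scaling, other probe sets, a replicate block and leaving out arrays. Enzymes and lists were chosen with earlier results of these data known. All values are given for enzymes with an unadjusted p under 0.05 and for the regulated steps Hk2, Pfkl, Pfkfb3, Pkm, Pklr, Ldha, Fbp1, Pck1, G6pc and Khk. Those of Hk1 and Eno3 were added after they were seen. Of the pathway lists, up to 4 called genes are named, otherwise up to 2 with the smallest p. The marker lists are given by counts and levels, and genes are named for some of them only. Promoters are those of RefSeq.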

Additional observations from a re-analysis of the deposited data

How the results depend on the processing

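The count of 0 called enzymes held under every alternative except 1, the fit without deficient replicate 1, in which Fbp1 was called (0 to 1 lower over the fits that left out an array). Over all genes the 176 lower calls became 85 without a filter, 111 with the mean of all probe sets, 70 with the Gapdh covariate and 88 to 203 with an array left out. The 10 higher calls became 33 with array weights, 0 without a filter, 17 with arrays centred on their median, 6 with the mean of all probe sets, 4 with deficient replicate 1 and control replicate 2 both left out, 3 with the covariate and 3 to 36 with an array left out. The replicate block gave 132 lower and 9 higher calls and none among the enzymes. Arrays with the same number correlated at 0.05, -0.29 and 0.00 in their deviations from the group means, so they shared a number and were not treated as pairs.

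The median over the enzymes, -0.18, was -0.13 with array weights, -0.13 without a filter, -0.11 with centred arrays, -0.12 with the mean of probe sets, -0.24 with probe sets of 1 transcript, -0.02 with both arrays left out, -0.03 with the covariate and -0.23 to -0.10 with an array left out. Of 266 values of 15 named enzymes under the alternatives, 256 kept their sign and side of the threshold, 1 (Fbp1) crossed it and 9 turned sign. None of the 15 was called in the main fit, so keeping the side of the threshold meant staying uncalled. The other filters, trended eBayes and the replicate block leave each difference as it was, so the sign could not turn there. The 256 therefore does not measure how stable the differences are. G6pc was 0.08 with both arrays left out and -0.67 to 0.31 with 1 left out. Pck1 was 0.08 on its second probe set. Pfkfb3 was 0.41 with the covariate and -0.79 to 0.62 with an array left out. Pkm was 0.01 with array weights, 0.11 with both arrays left out, 0.22 with the covariate and -0.27 to 0.12 with an array left out. The covariate and the fit without both arrays were chosen after seeing the data. The cause was not tested.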
